A study of Mus musculus with 12 samples.

Results

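The Runx family of transcription factors, encoded by Runx1, Runx2 and Runx3, and their shared partner gene Cbfb were followed across polarised mouse T helper cells with and without the integrin αv chain. The 4 genes were taken by name from 26202 gene symbols in the expression table, with earlier results of these data known. All 4 lay above the filter on low values and were among the 9121 genes tested. RNA-seq was done on 4 groups of 3 libraries: TH2 Itgav KO, TH2 control, TH1 Itgav KO and TH1 control. Naïve CD4+ T cells from spleen were polarised for 5 days, and live CD4+ cells were then sorted. The control cells came from Cd4-CreERT2 mice, which carry a drug-inducible Cre recombinase driven by Cd4. The KO cells came from mice that carry the same Cre and a conditional Itgav allele, the gene of the αv chain. TH2 cultures held IL-4 and an antibody that neutralises IFN-γ, and TH1 cultures held IL-12 and one that neutralises IL-4. The study's culture methods name 4-hydroxytamoxifen, the drug that activates this Cre. Which of the sequenced cultures received it is not stated with the libraries, nor are the age of the mice and any sort for loss of αv. As no label ties a library to a mouse or a culture, the spread behind each p-value may be technical.

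Runx1, Runx2 and Runx3 share a DNA-binding domain, the Runt domain, that reads a short motif with the core TGTGGT. Cbfβ, the product of Cbfb, does not bind DNA itself and strengthens the binding of each Runx protein as its heterodimer partner. In T helper cells Runx3 is known to act with T-bet at Ifng and to silence Il4 in TH1 cells, and Runx1 is known to restrain Gata3. Runx2 is best known as the master factor of bone-forming cells and is also made in lymphocytes. In the promoter set used here Runx1 and Runx3 each have a distal and a proximal promoter, which give proteins with different N termini. That set holds 1 promoter for Runx2, and any other promoter of Runx2 was not searched.

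The 3 Runx genes share a sequence feature at their own promoters, which is shown here because it ties the family to the motif its proteins read. In RefSeq promoters of the GRCm38.p6 build (250 bases before to 50 after a start site), the distal Runx1 and Runx3 promoters and the Runx2 promoter each held the RUNX motif in tandem. The capitals mark both copies, which read ACCACA on the strand of the gene.
Runx3, chr4:135120503-135120532, plus strand: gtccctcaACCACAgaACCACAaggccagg
Runx1, chr16:92826025-92826054, minus strand: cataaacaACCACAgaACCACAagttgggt
Runx2, chr17:44814583-44814612, minus strand: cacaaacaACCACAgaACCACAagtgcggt
The copies began 134 and 126 bases before the start site in Runx3, 28 and 36 bases after it in Runx1, and 23 and 31 bases after it in Runx2. In all 3 genes the copies were separated by the same bases, ga.

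The tandem pair was noticed once these promoters had been read, so it is a description without a test. The single motif, TGTGGT or ACCACA on either strand, was found in 5506 of 32851 promoters of the same length (16.8%). The pair, ACCACA, any 2 bases and again ACCACA, searched on both strands, was found in 7 of 32851 promoters (0.0213%), of 7 among 27025 genes. These were Runx1, Runx2, Runx3, Gm12236, Gm15462, Olfr24 and Gm16225, and the Gm16225 window covers the same bases as that of Runx3. The Runx2 promoter held a further single copy 80 bases before its start site and the variant TGCGGT 39 bases after it, a variant that 6.45% of all promoters held. The proximal Runx1 and Runx3 promoters and the Cbfb promoter held no RUNX motif in these windows. None of the 6 promoters held the GATA letters AGATAA (11.2% of all promoters), the EGR letters GCGTGGGCG (0.612%), the T-box letters TCACACCT (1.28%) or the STAT letters TTCNNNGAA (8.3%), on either strand. A match is no evidence of binding, a missing match says only that these letters are not in the window, and counts per gene do not show which promoter was used.

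**Figure D1:**
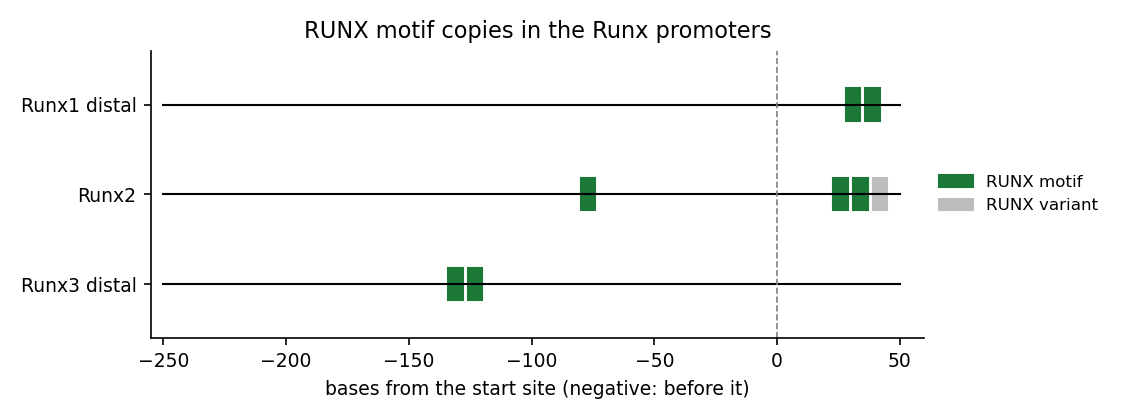
Copies of the RUNX motif (green, TGTGGT or ACCACA) and of its variant (grey, TGCGGT or ACCGCA) in the RefSeq promoters of Runx1, Runx2 and Runx3 that held any, plotted as bases from the start site (dashed line), with negative values before it. Each promoter had a tandem pair, before the start site in Runx3 and after it in Runx1 and Runx2.

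The libraries held 6344186 to 13312234 reads in genes. Levels are in CPM, reads of a gene scaled to the total reads in genes of the library, and are given as mean ± SD over 3 libraries (n = 3). By counting error alone, 3 reads corresponded to 0.225 to 0.473 CPM, the upper limit for a gene at 0. Differences are on the log2(CPM + 1) scale with their standard error, which understates the change of low genes, and "called" means an adjusted p below 0.05 in limma. Itgav, the check of the knockout, was at 53.0 ± 8.68 CPM in TH2 Itgav KO and 252 ± 59.3 CPM in TH2 control libraries, and at 30.7 ± 11.0 CPM in TH1 Itgav KO and 203 ± 42.4 CPM in TH1 control libraries. The 4 T cell markers Cd3e, Cd3d, Cd4 and Cd28 summed to 4380 to 5275 CPM, and the 4 mast cell and basophil markers were at 0 in every library. Replicates differed most among TH2 control libraries (chi-square per degree of freedom up to 72.8, against 17.8 at the lowest, between 2 TH1 control libraries). TH2 control 2 and TH2 Itgav KO 3 had been doubted in an earlier analysis. Calls of the 4 genes that change without them are given below, with those of some other genes.

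Runx3 was the gene of the family with the clearest difference in TH2 cells. It read 456, 324 and 283 CPM in the TH2 Itgav KO libraries and 233, 113 and 161 CPM in the TH2 control libraries. It read 368, 455 and 410 CPM in TH1 Itgav KO libraries and 382, 428 and 416 CPM in TH1 control libraries. Every TH2 Itgav KO library lay above every TH2 control library, as for 9.97% of genes, whereas the TH1 groups overlapped. The lowest value of all 12 libraries was that of TH2 control 2.

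In TH2 cells Runx3 rose 2.14-fold with loss of αv (log2 1.10 ± 0.20, adjusted p = 0.00410), a call given to 175 of 9121 genes in this direction (1.92%). By p-value it ranked 61 among all genes tested. The call held whichever library was left out and without both doubted libraries (log2 0.99, adjusted p = 0.00702), and was lost with no filter (adjusted p = 0.0577) or without the variance trend (0.0797). In TH1 cells the difference was 0.00 on the log2 scale (95% interval −0.42 to 0.43, adjusted p = 0.998), where 0.844% of genes were called. The difference between both KO effects was 1.09 ± 0.29 and was not called (adjusted p = 0.107, unadjusted p = 0.00112), in a comparison that called 0.406% of genes. Without TH2 control 1 it was 1.36 and called (adjusted p = 0.0203).

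Between the subsets, Runx3 was lower in TH2 than in TH1 control cells (log2 −1.33 ± 0.20, adjusted p = 5.75e-05), where 9.75% of genes were called lower. The TH2 control libraries all lay below the TH1 control libraries, as for 17.1% of genes. Between the αv-deficient groups no such gap was seen, as TH2 Itgav KO and TH1 Itgav KO libraries overlapped (log2 −0.24, 95% interval −0.66 to 0.19, adjusted p = 0.445). Both TH1 groups and the TH2 Itgav KO group overlapped in Runx3 level, and the TH2 control group alone stood apart.

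Some markers of the subsets also differed between TH2 Itgav KO and TH2 control cells, and others did not. The 4 TH1 markers (Tbx21, Ifng, Cxcr3 and Il12rb2) summed to 496 to 543 CPM in TH2 Itgav KO and 260 to 394 CPM in TH2 control libraries. They summed to 6661 to 6854 CPM in TH1 Itgav KO and 11133 to 13400 CPM in TH1 control libraries. In TH2 cells nearly all of this sum was Il12rb2, a chain of the IL-12 receptor, at 512 ± 28.5 CPM in TH2 Itgav KO and 312 ± 59.2 CPM in TH2 control cells (log2 0.73 ± 0.14, adjusted p = 0.00474, and 0.0511 with no filter and 0.0951 without the variance trend). Cxcr3 was at 0.290 ± 0.278 CPM in TH2 Itgav KO and 2.63 ± 3.04 CPM in TH2 control cells. The defining pair of that list was low, with Ifng at 2.54 ± 1.23 CPM and Tbx21 at 3.93 ± 6.73 CPM in TH2 Itgav KO cells, against 9.23 ± 12.2 CPM and 3.14 ± 3.59 CPM in TH2 control cells. The 4 TH2 markers (Gata3, Il4, Il5 and Il13) summed to 1190 to 1721 CPM in TH2 Itgav KO and 2019 to 3142 CPM in TH2 control libraries. The gap lay in the cytokine genes Il5 and Il13, at 106 ± 51.3 and 221 ± 30.6 CPM in TH2 Itgav KO and 538 ± 185 and 972 ± 294 CPM in TH2 control cells. Il4 was at 418 ± 192 CPM in TH2 Itgav KO and 334 ± 63.1 CPM in TH2 control cells, and Gata3 at 711 ± 57.3 and 787 ± 38.5 CPM, with no call. The part of these markers in the Runx3 difference was not tested. In bulk samples more cells that make a transcript and more transcript per cell cannot be told apart.

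**Figure D2:**
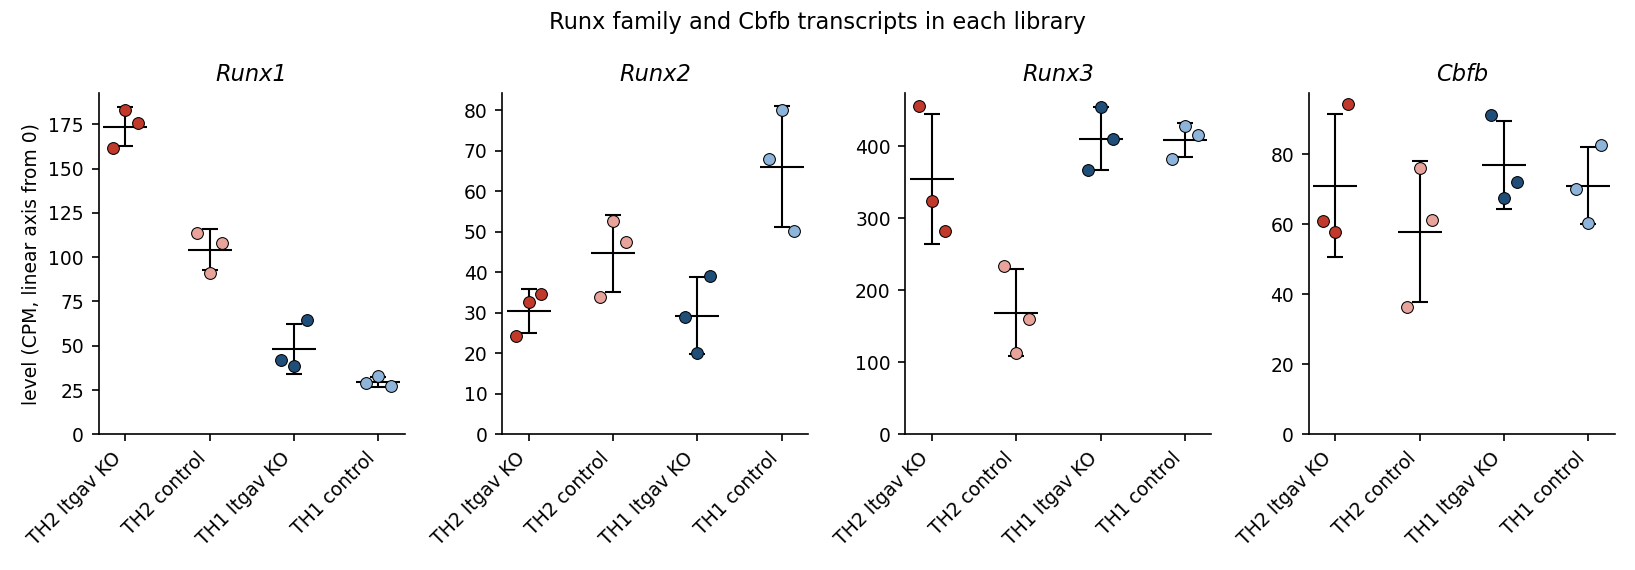
Level of each gene in CPM on a linear axis from 0, with 1 point per library and the mean ± SD of each group (n = 3). TH2 Itgav KO libraries lay above TH2 control libraries for Runx1 and Runx3, TH1 Itgav KO libraries lay below TH1 control libraries for Runx2, and Cbfb groups overlapped throughout.

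Runx1 was the TH2-biased member. It read 162, 183 and 176 CPM in TH2 Itgav KO libraries and 113, 91.3 and 108 CPM in TH2 control libraries. It read 42.2, 38.4 and 64.4 CPM in TH1 Itgav KO libraries and 29.1, 32.7 and 27.1 CPM in TH1 control libraries. The 4 groups did not overlap in any pair, in the order TH2 Itgav KO, TH2 control, TH1 Itgav KO and TH1 control. Its KO libraries lay above the control libraries in TH2 cells, as for 9.97% of genes, in TH1 cells, as for 10.2%, and in both, as for 163 of 9121 genes (1.79%). Its TH2 libraries lay above the TH1 libraries, as for 19.9% of genes among KO and 16.6% among control cells.

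The TH2 bias of Runx1 was called in both genotypes. It was 3.63-fold higher in TH2 Itgav KO than in TH1 Itgav KO cells (log2 1.86 ± 0.22, adjusted p = 1.41e-06), where 12.2% of genes were called higher. It was 3.43-fold higher in TH2 than in TH1 control cells (log2 1.78 ± 0.22, adjusted p = 2.75e-06), where 8.58% were. The KO difference was 0.73 ± 0.22 on the log2 scale in TH2 cells (adjusted p = 0.0635) and 0.65 ± 0.22 in TH1 cells (adjusted p = 0.195), and limma called neither. The difference between both KO effects was 0.08 (95% interval −0.56 to 0.72). With array weights, an alternative chosen after the data were seen that gives less weight to variable libraries, the TH1 difference was 0.73 and called (adjusted p = 0.0247). Runx1 and Runx3 were therefore called in opposite directions between TH2 and TH1 control cells.

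Runx2 was the member whose KO libraries read low. It read 24.2, 32.6 and 34.6 CPM in TH2 Itgav KO libraries and 34.0, 52.6 and 47.4 CPM in TH2 control libraries. It read 28.9, 19.95 and 39.2 CPM in TH1 Itgav KO libraries and 68.1, 80.0 and 50.2 CPM in TH1 control libraries. The TH1 Itgav KO libraries all lay below the TH1 control libraries, as for 10.6% of genes, while the TH2 groups overlapped by 1 library of each. From the highest mean the order was TH1 control, TH2 control, TH2 Itgav KO and TH1 Itgav KO, and each group overlapped with the next.

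In TH1 cells the Runx2 difference was −1.17 ± 0.30 on the log2 scale and not called (adjusted p = 0.0663). It was called when limma was given the TH1 libraries alone (adjusted p = 0.00729), without TH2 control 1 (0.0441), without TH2 control 2 (0.0460), without both doubted libraries (0.0290) and with array weights (0.0116). In TH2 cells it was −0.53 ± 0.30 (95% interval −1.14 to 0.09, adjusted p = 0.345). The KO effects differed by 0.64 ± 0.42 between the subsets and this was not called (adjusted p = 0.613). Runx2 was not called between TH2 and TH1 cells, with a log2 difference of 0.09 in KO cells (adjusted p = 0.878) and −0.55 in control cells (adjusted p = 0.220). Within the Runx2 gene lie parts of Supt3 and Runx2os3, and the amplification kit did not keep strand, so reads of such overlaps may have counted for either gene. Supt3, a component of a histone acetyltransferase complex, was at 20.5 ± 11.1 CPM in TH2 Itgav KO and 15.9 ± 7.47 CPM in TH2 control cells, and at 22.7 ± 9.25 CPM in TH1 Itgav KO and 23.2 ± 2.19 CPM in TH1 control cells, with no call.

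Cbfb, the common partner, was the flattest of the 4 genes. It read 61.0, 57.7 and 94.5 CPM in TH2 Itgav KO libraries and 36.3, 76.1 and 61.2 CPM in TH2 control libraries. It read 91.3, 67.6 and 72.1 CPM in TH1 Itgav KO libraries and 70.2, 60.5 and 82.6 CPM in TH1 control libraries. All 4 groups overlapped, and the spread among the TH2 libraries exceeded the distance between the group means. The KO difference was 0.32 ± 0.26 on the log2 scale in TH2 cells (95% interval −0.23 to 0.87) and 0.11 ± 0.26 in TH1 cells (95% interval −0.44 to 0.66). These intervals still allow a log2 change of up to 0.87, so a moderate change of Cbfb could have been missed at this replication. Between TH2 and TH1 cells the difference was −0.14 in KO cells (adjusted p = 0.765) and −0.34 in control cells (adjusted p = 0.417), and limma called neither.

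The KO effect averaged over both subsets was added after the values were seen, because Runx1 and Runx2 leaned the same way in both. In limma it was 0.69 ± 0.15 on the log2 scale for Runx1 (adjusted p = 0.0122), −0.85 ± 0.21 for Runx2 (0.0242), 0.55 ± 0.14 for Runx3 (0.0328) and 0.22 ± 0.19 for Cbfb (0.603). Of all genes tested, 2.18% were called higher and 2.04% lower in this contrast. As it was chosen on these values, it does not add independent support. The Runx1 call held in all 22 alternatives (adjusted p up to 0.0471). The Runx2 call was lost in 6, with an adjusted p of up to 0.0871 without TH1 control 2, and also without TH2 Itgav KO 1 (0.0603), TH1 Itgav KO 2 (0.0725) or TH1 control 1 (0.0636). The Runx3 call was lost in 10, among them leaving out TH2 Itgav KO 1 (0.0913), TH2 control 2 (0.0682), TH2 control 3 (0.0569) or any TH1 library but TH1 Itgav KO 1 (0.0680 to 0.0973).

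**Figure D3:**
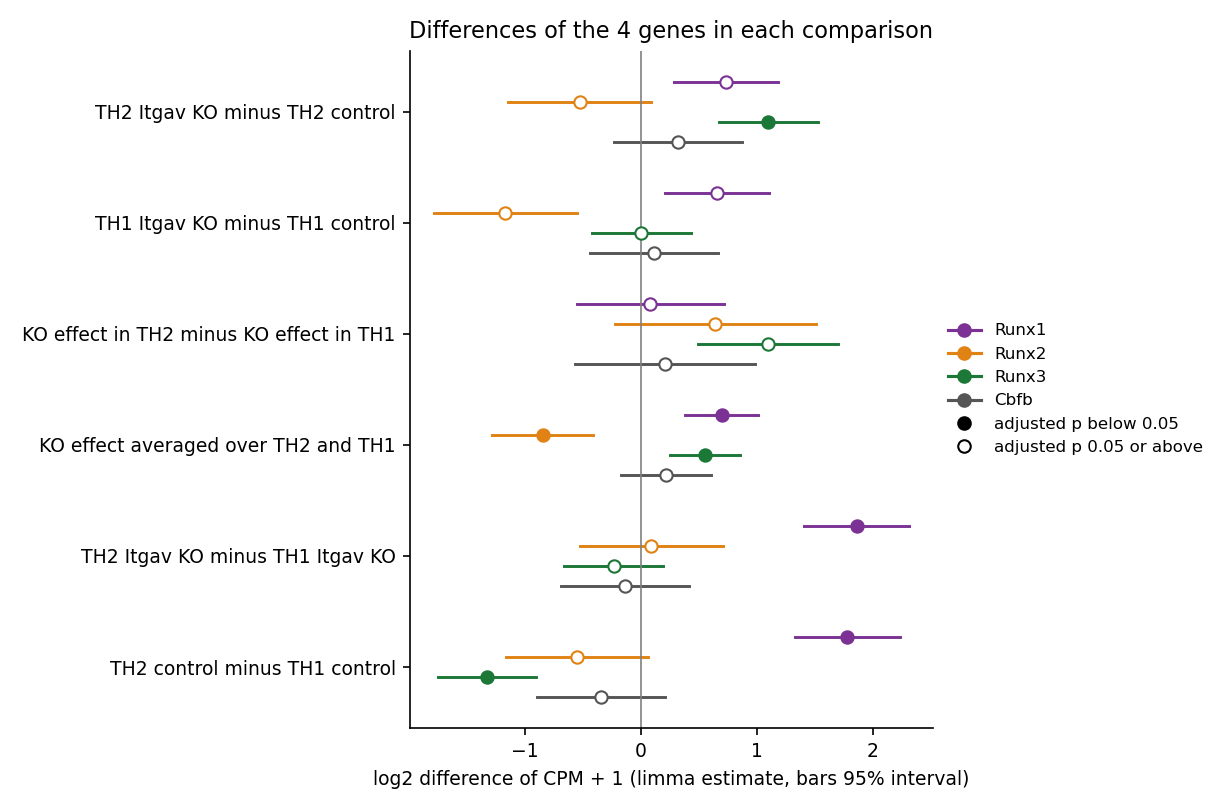
Log2 difference of CPM + 1 (limma estimate, bars 95% interval) of each gene in each comparison, filled where the adjusted p was below 0.05. Runx3 in TH2 cells (1.10) was the only filled point among KO differences within a subset, and the averaged KO effect was added after the values were seen.

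To compare the genes with each other, CPM was divided by the summed length of a gene's exons, 12.025 kb for Runx1, 8.84 kb for Runx2, 5.00 kb for Runx3 and 3.48 kb for Cbfb. On this scale Runx3 was the most abundant of the family in every group, with a level of 70.8 ± 18.1 CPM per kb in TH2 Itgav KO and 33.8 ± 12.2 in TH2 control cells, and 82.1 ± 8.69 in TH1 Itgav KO and 81.7 ± 4.74 in TH1 control cells. Runx1 followed in TH2 cells at 14.4 ± 0.90 CPM per kb in TH2 Itgav KO and 8.67 ± 0.96 in TH2 control libraries. Runx2 had 3.32 ± 1.09 CPM per kb in TH1 Itgav KO cells, where Runx1 had 4.02 ± 1.17, and 7.48 ± 1.70 in TH1 control cells, where Runx1 had 2.46 ± 0.23. Cbfb lay between 16.6 and 22.1 CPM per kb in the group means.

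Added together, the 3 Runx genes had 88.7 ± 16.7 CPM per kb in TH2 Itgav KO and 47.5 ± 11.97 in TH2 control cells. In TH1 cells the sum was 89.4 ± 8.25 CPM per kb in Itgav KO and 91.7 ± 5.44 in control cells. The TH2 control libraries, at 36.1 to 59.9, lay below every other library, of which the lowest was at 75.1 CPM per kb. The sum was 4.65 ± 1.72 times Cbfb in TH2 Itgav KO and 3.35 ± 2.14 times in TH2 control cells, and 4.15 ± 0.98 times in TH1 Itgav KO and 4.58 ± 0.92 times in TH1 control cells. Within a subset the smallest p that an exact permutation test of 3 against 3 libraries can give is 0.1, and the TH2 sum reached it (two-sided exact permutation p = 0.1, adjusted p = 0.208 over 25 such tests).

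The make-up of the Runx pool, a ratio within each library, did not depend on library scaling. Runx3 made up 79.2 ± 5.05% of the pool in TH2 Itgav KO and 69.8 ± 7.73% in TH2 control cells, and 91.7 ± 2.51% in TH1 Itgav KO and 89.2 ± 1.84% in TH1 control cells. Runx1 made up 16.7 ± 3.70% in TH2 Itgav KO and 18.7 ± 2.72% in TH2 control cells, and 4.51 ± 1.27% in TH1 Itgav KO and 2.69 ± 0.18% in TH1 control cells. Runx2 made up 4.06 ± 1.37% in TH2 Itgav KO and 11.5 ± 5.04% in TH2 control cells, and 3.75 ± 1.28% in TH1 Itgav KO and 8.14 ± 1.66% in TH1 control cells.

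Between genotypes, the Runx2 share had the lowest p of the 25 such tests. Its KO libraries lay below the control libraries in both subsets, with a mean difference of −5.91 percentage points (two-sided exact permutation within subsets, p = 0.005, the smallest this test can give; adjusted p = 0.125 over these tests). A share depends on the level of every Runx gene. In TH2 cells Runx2 itself had 3.45 ± 0.62 CPM per kb in Itgav KO and 5.05 ± 1.09 in control libraries, which overlapped. Runx3 had 70.8 and 33.8 CPM per kb in the same groups. The Runx3 share was 5.99 points higher in KO cells over both subsets (exact permutation p = 0.06, adjusted p = 0.208). That p was 0.015 without TH2 control 1, 0.04 without TH1 Itgav KO 3 and 0.045 without TH1 control 3. The Runx1 share of the pool differed between KO and control cells by −0.08 points over both subsets (exact permutation p = 0.975).

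**Figure D4:**
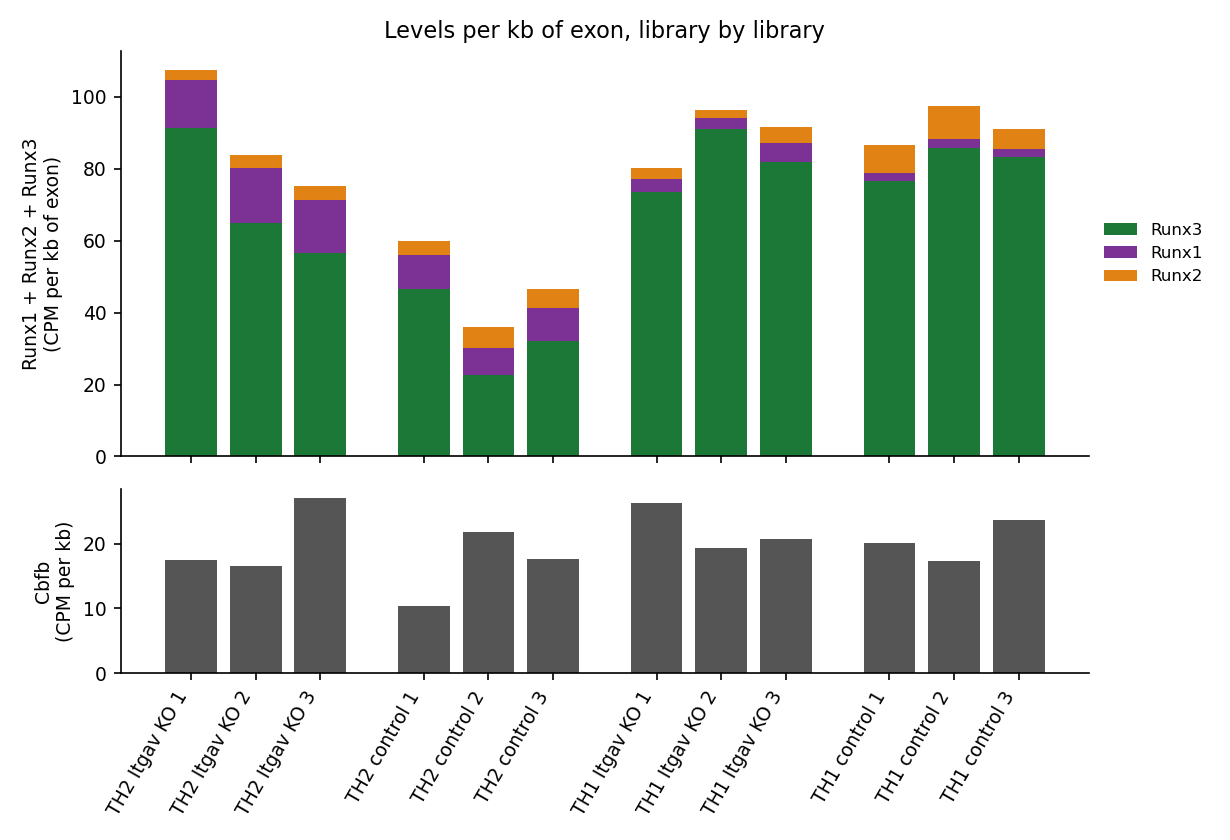
Levels in CPM per kb of exon in each library, with Runx3, Runx1 and Runx2 stacked in the upper panel and Cbfb in the lower panel, both on linear axes from 0. The summed Runx level was 36.1 to 59.9 in TH2 control libraries and 75.1 or more in all other libraries.

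The proteins that work with Runx and Cbfβ were followed through a list of 22 partner genes, of which 18 were tested. They include genes of the Groucho family (Tle1, Tle3 and Tle5), the ETO co-repressor gene Cbfa2t2, histone deacetylases and the acetyltransferases Ep300, Crebbp and Kat6a. The list also holds the Runx-binding factor Ets1, and Hnrnpk and Eif4b, whose products link Cbfβ to translation in human cells. In TH2 cells limma called none of the 18 between KO and control (3.59% of all genes were called), with 3 at an unadjusted p below 0.05 (19.1% of all genes) and a median log2 difference of 0.04 against 0.04 over all genes. In TH1 cells it also called none (0.844% of all genes), with 3 at an unadjusted p below 0.05 (10.1% of all genes) and a median of −0.02 against 0.00. The largest TH1 difference was that of Tle1, at 5.69 ± 2.61 CPM in Itgav KO and 16.6 ± 2.39 CPM in control libraries. These did not overlap, as for 10.6% of genes in this direction (log2 −1.48 ± 0.41, adjusted p = 0.102). Tle1 was called there without both doubted libraries (0.0448) and with array weights (0.0163). In TH2 cells Tle1 differed by −0.46 ± 0.41 (adjusted p = 0.586). The partners with the highest mean level over the 4 groups were Tle5 and Ep300. Tle5, which encodes a short Groucho protein, was at 554 ± 57.2 CPM in TH2 Itgav KO and 426 ± 17.6 CPM in TH2 control cells, a log2 difference of 0.37 ± 0.13 (adjusted p = 0.122). In TH1 cells it was at 698 ± 108 CPM in Itgav KO and 508 ± 42.9 CPM in control libraries, a log2 difference of 0.45 ± 0.13 (adjusted p = 0.119, and 0.0233 with the TH1 libraries alone). It was the 1 of 18 partners called in the averaged KO effect (log2 0.41 ± 0.09, adjusted p = 0.0134), where 2.18% of all genes were called higher. In that contrast 6 of the 18 had an unadjusted p below 0.05 (17.4% of all genes). The Tle5 call was lost without TH1 Itgav KO 3 (0.0540) or TH1 control 2 (0.0507), with no filter (0.0597) and without the variance trend (0.118). Ep300, which encodes the acetyltransferase p300, differed by 0.06 ± 0.16 in TH2 and −0.02 ± 0.16 in TH1 cells.

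Between the subsets some partners were called. Among KO cells 4 of 18 were higher in TH2 than in TH1 cells and 1 was lower, where limma called 23.7% of all genes. Among control cells 3 were higher and 1 was lower, where it called 18.3%. Hipk2, a kinase that phosphorylates Runx1, was at 440 ± 130 CPM in TH2 Itgav KO and 102 ± 27.9 CPM in TH1 Itgav KO cells, and at 360 ± 49.4 CPM in TH2 control and 75.7 ± 8.37 CPM in TH1 control cells (log2 2.08 ± 0.21 and 2.23 ± 0.21). Ets1, which binds DNA together with Runx1, was at 430 ± 18.9 CPM in TH2 Itgav KO and 214 ± 7.68 CPM in TH1 Itgav KO cells, and at 400 ± 24.8 CPM in TH2 control and 214 ± 18.8 CPM in TH1 control cells (log2 1.01 and 0.90). Prmt1, an arginine methyltransferase gene, was lower in TH2 Itgav KO than in TH1 Itgav KO cells (log2 −0.83 ± 0.22, adjusted p = 0.00852), as 11.6% of genes were. The histone deacetylase gene Hdac3 was lower in TH2 control than in TH1 control cells (log2 −0.73 ± 0.22, adjusted p = 0.0255), a call lost without TH2 control 1, TH2 control 2 or any TH1 control library (0.0586 to 0.124). It was also lost in 5 of 11 other alternatives (0.0592 to 0.143), among them array weights, where the difference was −0.43. Eif4b was higher in TH2 cells of both genotypes (log2 0.61 in KO and 0.48 in control cells), and Tle1 was called higher in TH2 Itgav KO than in TH1 Itgav KO cells (log2 1.89 ± 0.41, adjusted p = 0.00162). The Eif4b call in control cells was lost without TH2 control 1, TH2 control 3 or any TH1 control library (adjusted p 0.0602 to 0.128), with no filter (0.0889) and without the variance trend (0.134).

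Genes that Runx factors are known to activate in lymphocytes were followed as a list of 12, of which 6 were tested (Ifng, Gzmb, Cd8b1, Il2rb, Csf2 and Il7r). In TH2 cells 1 of the 6 was called lower in KO cells, as 1.67% of all genes were, and none higher, with 2 at an unadjusted p below 0.05 (19.1% of all genes) and a median of −0.16 against 0.04 over all genes. This was Csf2, the gene of the cytokine GM-CSF, whose human promoter is activated by RUNX1. It read 6.47, 4.10 and 7.03 CPM in TH2 Itgav KO and 13.1, 25.0 and 35.5 CPM in TH2 control libraries, which did not overlap, as for 8.76% of genes (log2 −1.82 ± 0.50, adjusted p = 0.0473). The call was lost when any library other than TH2 control 1 or TH1 Itgav KO 2 was left out (adjusted p 0.0526 to 0.136), and in 6 of 11 other alternatives (0.0568 to 0.146), among them the fit without both doubted libraries (0.125). In TH1 cells Csf2 read 8.28, 2.53 and 11.2 CPM in Itgav KO and 20.9, 18.1 and 35.2 CPM in control libraries, a log2 difference of −1.75 ± 0.50 that was not called (adjusted p = 0.111). It was called with the TH1 libraries alone (0.0202) and with array weights (0.0229). Limma called none of the 6 genes there (0.844% of all genes), with 2 at an unadjusted p below 0.05 (10.1% of all genes).

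Of the 6 tested genes of that list, 3 were called between the subsets, Ifng, Gzmb and Il7r, all lower in TH2 cells. Limma called 11.6% of all genes lower in TH2 cells among KO cells and 9.75% among control cells. Ifng is also on the list of TH1 markers above, which differ between the subsets by their choice. Ifng, the gene of interferon-γ, was at 4523 ± 214 CPM in TH1 Itgav KO and 9303 ± 972 CPM in TH1 control cells. These TH1 groups did not overlap, as for 10.6% of genes in this direction. This log2 difference of −1.04 ± 0.47 was not called over all 12 libraries (adjusted p = 0.460), was called with the TH1 libraries alone (6.60e-08) and was called without TH2 control 2 (0.00541). In TH2 cells Ifng was low, at 1.65 to 3.94 CPM in Itgav KO libraries and at 1.75, 2.65 and 23.3 CPM in control libraries. The fit shares its estimate of the spread over all groups, so this TH2 scatter also widens the standard error in TH1 cells. For Ifng the difference between both KO effects was 0.16 on the log2 scale (adjusted p = 0.954), and its TH2 side rests on the 1 high control library. This difference was called without both doubted libraries (log2 1.32, adjusted p = 0.0358). Gzmb, the gene of granzyme B, was at 34.1 ± 8.01 CPM in TH2 Itgav KO and 23.7 ± 4.71 CPM in TH2 control cells (log2 0.50 ± 0.18, adjusted p = 0.127, and 0.0495 without TH2 Itgav KO 3), against 2051 ± 200.2 CPM in TH1 Itgav KO and 1860 ± 200.5 CPM in TH1 control cells. Ifng, Gzmb and Il7r, the gene of the IL-7 receptor chain, were called lower in TH2 than in TH1 cells in both genotypes, except that the Il7r call in control cells was lost without TH1 control 1 (adjusted p = 0.0528). Il2rb, the gene of the IL-2 receptor β chain, lay between 628 and 700 CPM in all 4 group means and was called in no comparison. Cd8b1, the gene of the CD8 β chain, lay between 10.8 and 13.1 CPM in the group means and was called in none either. The other 6 genes of the list (Itgae, Prf1, Eomes, Cd8a, Il3 and Foxp3) did not reach the filter.

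The 4 genes that Runx factors are known to silence or repress, Il4, Cd4, Zbtb7b and Gata3, were all tested. Limma called none of them between KO and control in TH2 cells (3.59% of all genes) or in TH1 cells (0.844%). In TH2 cells 0 of the 4 had an unadjusted p below 0.05 (19.1% of all genes) and the median was −0.06 against 0.04 over all genes. In TH1 cells 1 had (10.1% of all genes) and the median was 0.04 against 0.00. With array weights Gata3 was called in TH1 cells (log2 0.69, adjusted p = 0.0267). Il4, which Runx3 silences in TH1 cells, was at 418 ± 192 CPM in TH2 Itgav KO and 334 ± 63.1 CPM in TH2 control cells (log2 0.24 ± 0.40, adjusted p = 0.790). Gata3, the master factor of TH2 cells, was at 711 ± 57.3 CPM in TH2 Itgav KO and 787 ± 38.5 CPM in TH2 control cells (log2 −0.15 ± 0.21, adjusted p = 0.756). Cd4 was at 3252 ± 263 CPM in TH2 Itgav KO and 3205 ± 307 CPM in TH2 control cells. Between the subsets, Il4, Gata3 and Cd4 were called higher in TH2 cells among KO cells (12.2% of all genes) and control cells (8.58%), where Cd4 lost its call without the variance trend (adjusted p = 0.0545). Zbtb7b, the gene of the CD4-lineage factor ThPOK, was called lower in TH2 Itgav KO than in TH1 Itgav KO cells (log2 −0.90 ± 0.31, adjusted p = 0.0387), a call lost without any single TH2 Itgav KO library, TH1 Itgav KO 1, TH1 Itgav KO 2 or TH1 control 3 (0.0516 to 0.233) and in 3 of 11 other alternatives (0.0581 to 0.0793).

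Of 8 bone genes that Runx2 is known to activate, Spp1 alone was expressed enough to be tested. It encodes osteopontin, a secreted protein that T cells also make and that αv integrins bind. Spp1 read 3.51, 5.52 and 7.58 CPM in TH2 Itgav KO libraries and 23.3, 85.8 and 54.2 CPM in TH2 control libraries. In TH1 cells it read 67.6, 78.1 and 80.2 CPM in Itgav KO and 115, 79.9 and 116 CPM in control libraries. The TH2 groups were far apart and the TH1 groups overlapped. Spp1 fell in TH2 cells with loss of αv (log2 −2.95 ± 0.36, adjusted p = 8.49e-05) and was not called in TH1 cells (log2 −0.44 ± 0.36), and the difference between both effects was itself called (log2 −2.51 ± 0.52, adjusted p = 0.0339), as 0.143% of genes were in this direction. The TH2 call held in every alternative run, and the call of the difference was lost when any library other than TH2 Itgav KO 3 or TH2 control 1 was left out (adjusted p 0.0533 to 0.132), with no filter (0.194) and without the variance trend (0.205).

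**Figure D5:**
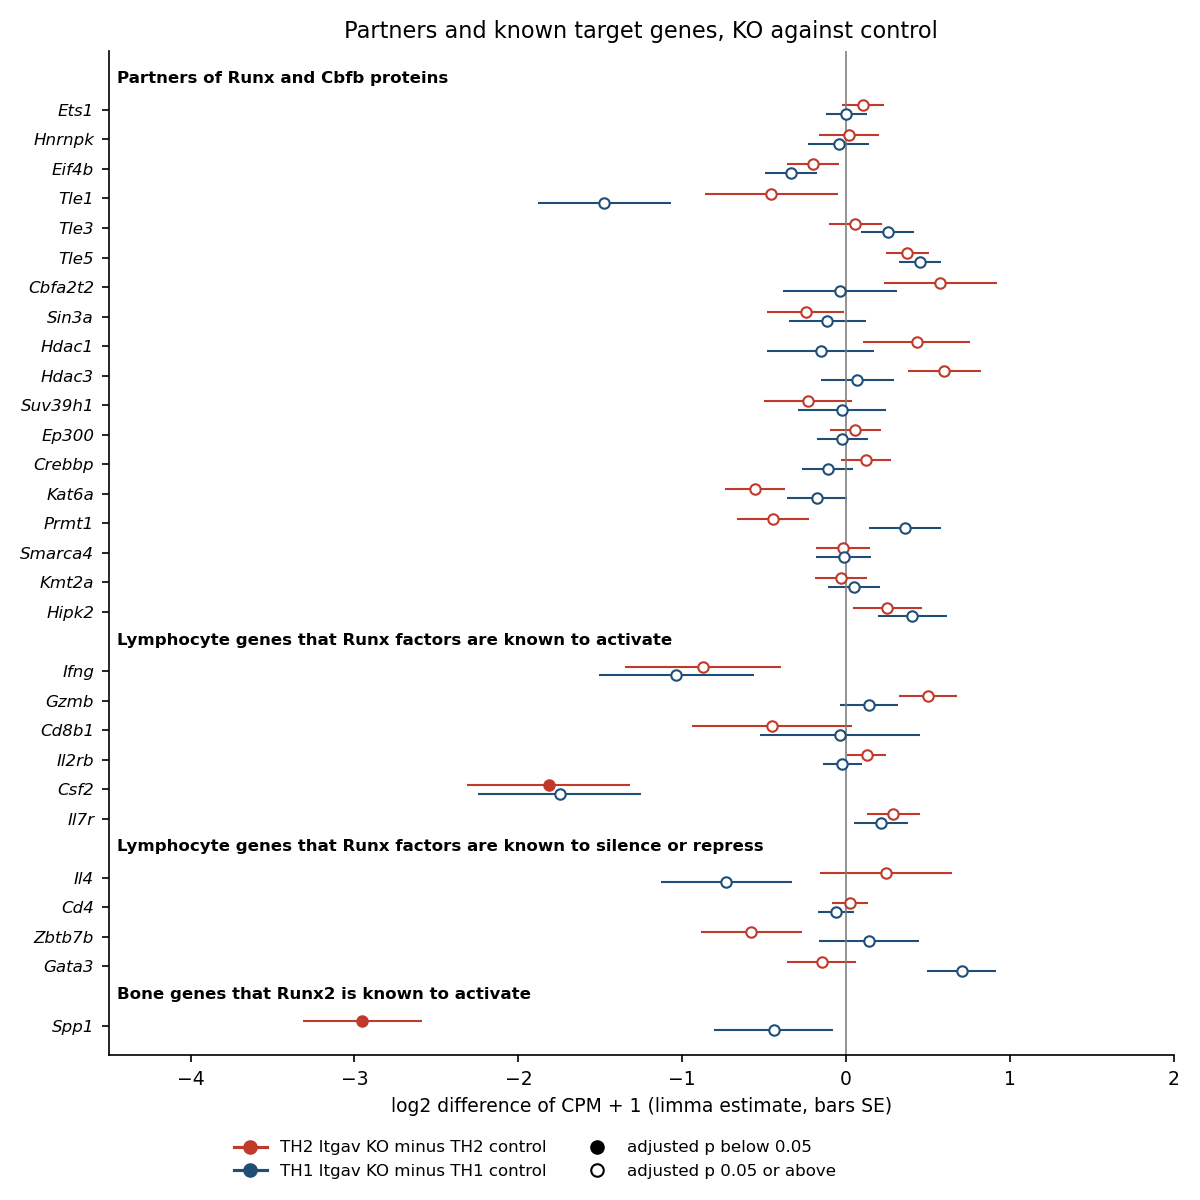
Log2 difference of CPM + 1 (limma estimate, bars SE), KO against control, of each tested partner and known target gene in TH2 cells (red) and TH1 cells (blue), filled where the adjusted p was below 0.05. The filled points were Csf2 (−1.82) and Spp1 (−2.95), both in TH2 cells.

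Limma called none of the 8 nearest tested genes between KO and control in TH2 cells (3.59% of all genes) or in TH1 cells (0.844%), with 0 in TH2 cells (19.1% of all genes) and 1 in TH1 cells (10.1%) at an unadjusted p below 0.05. The 1 was D230025D16Rik beside Cbfb (log2 −2.18 ± 0.63, adjusted p = 0.117), which was called without both doubted libraries (0.0470) and with array weights (0.0172). This gene reached 10 CPM only in TH2 control 1 (15.2), TH1 control 2 (11.8) and TH1 control 3 (11.5). It thus passed the filter through control libraries alone, which favours a lower level in KO libraries. It was not tested when any of these control libraries was left out. In the GRCm38 annotation Runx3 spans chr4:135120652-135177990 on the plus strand, Runx1 chr16:92601466-92826149 and Runx2 chr17:44495987-44814797 on the minus strand, and Cbfb chr8:105170674-105217989 on the plus strand. The nearest tested genes to Runx3 were Clic4, 36.0 kb away, at 139 ± 16.9 CPM in TH2 Itgav KO and 170 ± 27.6 CPM in TH2 control cells, and Syf2, 183 kb away, at 91.7 ± 12.8 CPM and 66.6 ± 7.25 CPM in the same groups. Limma called neither (log2 −0.29 ± 0.17 and 0.45 ± 0.24, adjusted p = 0.393 and 0.322). Smim11 and Setd4 beside Runx1, Enpp4 and Cdc5l beside Runx2, and Ciao2b and D230025D16Rik beside Cbfb were likewise called in neither KO comparison. Among these 8 neighbours the 1 call between the subsets was D230025D16Rik. It was higher in TH2 Itgav KO than in TH1 Itgav KO cells (log2 1.85 ± 0.63, adjusted p = 0.0360), where 12.2% of all genes were called higher. It lost its call without TH2 Itgav KO 2, TH2 Itgav KO 3, TH1 Itgav KO 2 or TH1 Itgav KO 3 (0.0990 to 0.111) and in 4 of 10 other alternatives (0.0556 to 0.0925). This gene was low, at 1.08 ± 0.96 CPM in TH1 Itgav KO and 8.85 ± 4.80 CPM in TH1 control cells. In TH2 cells it was at 6.29 ± 2.21 CPM in Itgav KO and 8.31 ± 6.21 CPM in control libraries. TH1 Itgav KO 2 and TH1 Itgav KO 3 held 5 and 6 of its reads.

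The genes most alike in pattern were found by the root mean square difference of log2(CPM + 1), each gene centred on its own mean, over 12 libraries and 8907 genes. The nearest to Runx3 were Ranbp10 (0.25), Gnb5 (0.27), Iqsec1, Pigp and Selenow (0.29), each with its lowest group mean in TH2 control cells. Ranbp10, which binds the small GTPase Ran, was at 61.8 CPM in TH2 Itgav KO and 27.4 CPM in TH2 control cells, and at 61.4 CPM in TH1 Itgav KO and 66.3 CPM in TH1 control cells. The nearest to Runx1 were Impa2, Pcx, H2-DMa, Tgm2 and Glb1 (0.27 to 0.34). Impa2, an inositol monophosphatase gene, was at 155 CPM in TH2 Itgav KO and 87.1 CPM in TH2 control cells, and at 39.9 CPM in TH1 Itgav KO and 22.1 CPM in TH1 control cells.

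The nearest to Runx2 were Zeb2, Ptpn3, Naa30, Ddx10 and Kif1b (0.29 to 0.33). Zeb2, a zinc-finger transcription factor of effector T cells, was at 38.3 CPM in TH2 Itgav KO and 72.9 CPM in TH2 control cells, and at 39.2 CPM in TH1 Itgav KO and 80.2 CPM in TH1 control cells, and both genes had their lower means in KO cells. The nearest to Cbfb were Azi2, Sp3os, Rtca, Brip1os and Mfsd10 (0.13 to 0.18). These small distances go with a small range, as Cbfb itself had a root mean square deviation of 0.34 from its mean, against 0.99 for Runx1, 0.55 for Runx2 and 0.61 for Runx3. Among themselves the 4 members differed by 0.64 (Runx2 and Cbfb) to 1.36 (Runx1 and Runx3). The genes named above were picked as the nearest of 8907. Their smaller distances follow from that choice and say nothing about the family.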

How the data were processed

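RNA was extracted from sorted cells with the RNeasy Plus Micro kit, amplified with the Ovation RNA-seq System V2 and sequenced as single reads. Per the study's methods and processing notes, the authors used Trim Galore 0.50, STAR 2.6.0a with the GRCm38 genome and DESeq2 1.18.1. The counting tool is not given in the sources used here. Deposited values were CPM, each with 0.0001 added by the authors, which was subtracted. Because CPM are relative, a change of very abundant genes shifts the values of the others.

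The design planned a count test for counts and limma for normalised values, so limma 3.58.1 in R 4.3.3 was used, with a variance trend, on log2(CPM + 1). The fit took all 12 libraries and the genes that reached 10 CPM in 3 or more of them, two-sided, with Benjamini-Hochberg adjustment over the 9121 genes. KO was compared with control within each subset, both KO effects with each other, and TH2 with TH1 within each genotype. Shares and sums per kb of exon (GENCODE, GRCm38) were compared by exact permutation. Low values were whole reads within 0.1 reads in 100% of cases, which gave depths and floors. Replicates differed beyond sampling noise and each counted once. The steps were tested on simulated data.

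The genes and lists were chosen with earlier results of these data known. Named were the 4 genes and Itgav, of each list the called members with the largest change (at most 4, otherwise the 2 with the highest level), the nearest and overlapping genes, and the 5 most alike genes of each. Further genes were given for the role their product has or, for Tle1 in TH1 cells, for the size of the difference. Alternatives were pseudocounts of 0.25 and 4 CPM, a filter of 1 CPM or none, TMM or quantile scaling, a fit of the compared groups alone, a fit with no variance trend, a block for the replicate number, no length correction and each library left out. The averaged KO effect, array weights and the removal of both doubted libraries at once were added after the data were seen. The partner Aes was matched as Tle5.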

Additional observations from a re-analysis of the deposited data

How the results depend on the processing

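Over the 4 genes, 518 of 544 alternative values kept their call or lack of one, 8 gained a call, 18 lost one and no called direction reversed. Differences that were not called could change sign, as for Runx1 between both KO effects (−0.06 to 0.30 with 1 library left out). The cause of these changes was not tested. Called in every alternative were the higher Runx1 level in TH2 than in TH1 cells of both genotypes (log2 1.69 to 2.08) and the lower Runx3 level in TH2 than in TH1 control cells (−1.59 to −1.07), and Cbfb was called in none. With no filter, adjusted p was 0.0577 for Runx3 in TH2 cells (log2 1.10), 0.0762 for the averaged effect of Runx2 (−0.85) and 0.164 for that of Runx3 (0.55), and without the variance trend 0.0797, 0.0641 and 0.178. Runx2 in TH1 cells was called with the TH1 libraries alone and without both doubted libraries (−1.17 each). Array weights called Runx1 (0.73) and Runx2 (−1.10) in TH1 cells and the Runx3 difference between both KO effects (1.19, adjusted p = 0.0140). With 1 library left out, log2 differences were −1.40 to −0.93 for Runx2 in TH1 cells, 0.84 to 1.36 for the Runx3 difference between KO effects, −0.96 to −0.73 for the averaged effect of Runx2 and 0.42 to 0.68 for that of Runx3, and the Runx3 share was 4.15 to 8.001 points higher in KO cells. With no length correction the Runx3 share differed by −21.3 points between TH2 and TH1 Itgav KO cells (−12.5 with it) and by −29.1 points between TH2 and TH1 control cells (−19.4 with it).

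Counts of called genes moved more. In TH2 cells the count of 327 genes called between KO and control became 141 with no filter, 125 with the TH2 libraries alone, 76 without the variance trend, 153 without both doubted libraries and 158 to 383 with 1 library left out. In TH1 cells the count of 77 became 367 with the TH1 libraries alone, 29 without the trend, 198 without both doubted libraries, 406 with array weights and 26 to 124 with 1 left out. The count of 37 for the difference between KO effects became 2 with no filter, 1 without the trend, 85 with array weights and 2 to 50 with 1 left out, and TMM scaling called 15 higher and 13 lower, against 24 and 13. The averaged effect called 385 genes, against 141 with no filter, 130 without the trend, 603 with array weights and 179 to 432 with 1 left out. The replicate block left 17 genes in the difference between KO effects and 284 in TH2 cells, and changed no call of the 4 genes (Runx3 in TH2 cells log2 1.10, adjusted p = 0.00527). Same-numbered KO and control libraries had deviations correlated at −0.07 to 0.03, not every library correlated best with its own number, and the numbers were not taken as pairs. The planned count tests on recovered reads (edgeR and DESeq2) were not run. With 3 libraries a group, a comparison that was not called may still hold a difference of any size within its interval.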
